A study of Mus musculus with 12 samples.

Results

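This account follows 36 genes of antioxidant defence through an RNA sequencing study of esculetin, a plant coumarin. The genes were chosen by name, with earlier results of these data known. They cover the NRF2 transcription factor with its partners. They also cover the enzymes and carriers of the heme, glutathione, thioredoxin, NADPH and peroxide-removing pathways that antioxidant responses draw on. All 36 symbols matched exactly 1 row in both count tables, out of 55357 rows per table. The study compared esculetin with its vehicle in 2 settings, with 3 libraries in each of 4 groups.

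The liver groups came from male C57BL/6J mice with a WT genotype, 8 to 9 weeks old, which were gavaged daily for 7 days with 90 mg/kg of esculetin or with the vehicle, 2.5% Tween-80. Both liver groups ate a diet with 10% of calories from fat for 4 days and then a diet with 60% of calories from fat for 3 days. The study's supplement states that 1 liver sample holds 2 mice, so a liver library stands for a small pool. The cell groups were RAW264.7, a mouse macrophage line with a WT genotype, held for 24 h with 25 µg/mL of DIL-oxLDL, an oxidised lipoprotein carrying a fluorescent dye, plus 40 µg/mL of esculetin or DMSO. Both cell groups therefore carried oxLDL, and no library without oxLDL was analysed here. Nothing in the labels says whether the cell libraries came from separate cultures, so their p-values measure only the spread between these libraries.

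In resting cells KEAP1 holds NRF2, the product of Nfe2l2, and passes it to a ubiquitin ligase for degradation. Electrophiles and oxidants modify cysteines of KEAP1, after which NRF2 gathers in the nucleus, pairs with a small MAF protein and binds antioxidant response elements in the promoters of its target genes. BACH1 occupies the same elements as a repressor and leaves them when heme binds it. The targets make glutathione and thioredoxin and keep both reduced with NADPH, break down heme, and remove reactive electrophiles. In the liver this programme is best known for defence against drugs and other foreign compounds, and in macrophages for limiting the damage of their own oxidants and for recycling heme iron.

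Promoter sequences were available from RefSeq (mouse build GRCm38.p6) for 31 of the 36 genes, each covering 250 bases before and 50 bases after a transcript start. Hmox1, Gclc, Gsr, Prdx6 and Abcc1 had no entry. The core of the antioxidant response element was searched as TGACNNNGC on both strands. It stood in the promoters of 10 of the 31 genes (32.3%), beside 14.0% of the 27025 gene symbols in the same table. Of the 13 genes with a promoter entry that were called higher in the esculetin-treated cells (below), 7 held it, against 1 of the 12 called lower and 2 of the 4 tested without a call. No such share was counted among all genes called higher or lower, and the split by call was not tested. A match is a description of the letters in this window and shows no binding. The 10 windows are shown because they mark where the searched letters stand close to the start. Each is written in the direction of the gene, 5′ to 3′, with the core in capitals and 10 flanking bases on both sides, and a core on the opposite strand reads GCNNNGTCA.
Nfe2l2, chr2:75704885-75704913: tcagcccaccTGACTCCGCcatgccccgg
Mafg, chr11:120633751-120633779: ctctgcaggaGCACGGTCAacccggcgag
Blvra, chr2:127070598-127070626: cacgggaattGCTCGGTCAaggctccgcc
Gclm, chr3:122245413-122245441: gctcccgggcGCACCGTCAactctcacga
Txnrd1, chr10:82859104-82859132: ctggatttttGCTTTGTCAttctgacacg
Srxn1, chr2:152105542-152105570: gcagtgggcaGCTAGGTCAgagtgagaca
G6pdx, chrX:74428919-74428947: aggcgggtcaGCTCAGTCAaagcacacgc
Pgd, chr4:149166061-149166089: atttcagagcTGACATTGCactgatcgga
Prdx1, chr4:116685456-116685484: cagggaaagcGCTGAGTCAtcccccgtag
Sod1, chr16:90220696-90220724: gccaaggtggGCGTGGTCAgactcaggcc

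The cores of Nfe2l2, Mafg, Pgd and G6pdx lie in genes on the minus strand, and the others in genes on the plus strand. The core began 240 bases before the start in Nfe2l2, 222 in Mafg, 134 in Gclm, 133 in Prdx1, 92 in Txnrd1, 57 in G6pdx, 56 in Sod1 and 49 in Blvra. In Srxn1 and Pgd it began after the start, at base 29 and base 4 of the transcript.

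The related letters TGANTCA, which read the same on both strands, are the site of AP-1 factors and form part of many antioxidant response elements, so that matches of both searches can overlap. They were found in 4 of the 31 genes (12.9%), beside 8.97% of all symbols. The genes were Srxn1 and Prdx1, each with 2 copies, and Osgin1 and Glrx with 1 each. One copy in Prdx1 overlapped its antioxidant response core. The Srxn1 copy nearest the start is followed by GC, as the searched core is, but has G where that core has C. The search for the core therefore did not take it. The 2 single copies read as follows, with the motif in capitals.
Osgin1, chr8:119437040-119437066: gggcccctgcTGACTCAcgcttatgaa
Glrx, chr13:75839777-75839803: taggaagtacTGACTCAtaccaaaatg

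Srxn1 and Prdx1 are printed over the whole 250 bases before the start. The reasons are that they hold the most matches, that both proteins act in the same peroxide cycle, and that their calls differed. In the main fit of the cells (below) Srxn1 was called and Prdx1 was not. The capitals mark every match of either search.
Srxn1, chr2:152105274-152105523, plus strand: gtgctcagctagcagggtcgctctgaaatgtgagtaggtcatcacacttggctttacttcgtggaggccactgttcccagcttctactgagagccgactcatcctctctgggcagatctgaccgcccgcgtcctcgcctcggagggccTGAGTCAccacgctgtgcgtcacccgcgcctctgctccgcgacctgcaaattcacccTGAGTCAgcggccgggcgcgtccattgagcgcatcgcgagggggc
Prdx1, chr4:116685349-116685598, plus strand: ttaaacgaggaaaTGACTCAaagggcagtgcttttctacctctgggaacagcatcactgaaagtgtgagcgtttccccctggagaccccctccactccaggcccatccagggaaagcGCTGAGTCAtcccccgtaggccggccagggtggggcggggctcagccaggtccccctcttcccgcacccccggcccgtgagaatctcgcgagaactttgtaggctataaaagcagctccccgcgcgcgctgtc

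Libraries held between 13752842 and 20001959 counts in the cells and between 14659876 and 20346460 in the liver. Levels are given as CPM, library-size-scaled counts with trimmed mean of M-values (TMM) factors, and levels of different genes are compared only as CPM per kb of transcript. Differences are given as log2 fold changes, esculetin against control, with the standard error (SE) of the edgeR quasi-likelihood fit, and a gene was called at a Benjamini-Hochberg adjusted p-value under 0.05 over all genes tested. In the cells 5 of 8 markers of Kupffer cells and macrophages exceeded 3 counts in some library, and Timd4 had no count. Of 8 hepatocyte markers 5, Ttr and Apoa1 among them, had no count in the cells. The macrophage list summed to between 1326 and 1496 CPM in the control cells and between 2102 and 2517 CPM in the treated cells, and 3 of its 4 tested genes were called, 2 of them higher. In the liver 8 of 8 hepatocyte markers were present, with sums of 116860 to 137147 CPM in control and 109850 to 134877 CPM in treated libraries. One liver library, control replicate 1, stood apart with a TMM factor of 1.11, where the other 5 lay between 0.963 and 0.997. It also had the lowest control value in 27 of the 35 members tested in the liver.

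Esculetin changed most of these genes in the oxLDL-treated macrophages. Of the 34 members tested there, 16 were called higher and 13 lower, led by Hmox1, Srxn1, Blvra and Gclm, while edgeR gave no call among 35 tested in the liver. The count of 29 called in the cells (85.3%) stands beside 57.7% of all 13277 genes tested, since esculetin moved a large share of the transcriptome. The members were chosen with earlier results of these data known, and the shares were not matched for expression level. The comparison with all genes is therefore a description and no test. Calls higher made up 47.1% of the members against 28.7% of all genes, and calls lower 38.2% against 29.0%. The control and treated libraries did not overlap for 16 members in the higher direction and 13 in the lower, beside 31.0% and 33.1% of all genes. The median log2 fold change was 0.29 over the members and -0.01 over all genes tested. Without esculetin replicate 3 the members' median was 0.08 and 30 members were called.

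**Figure D1:**
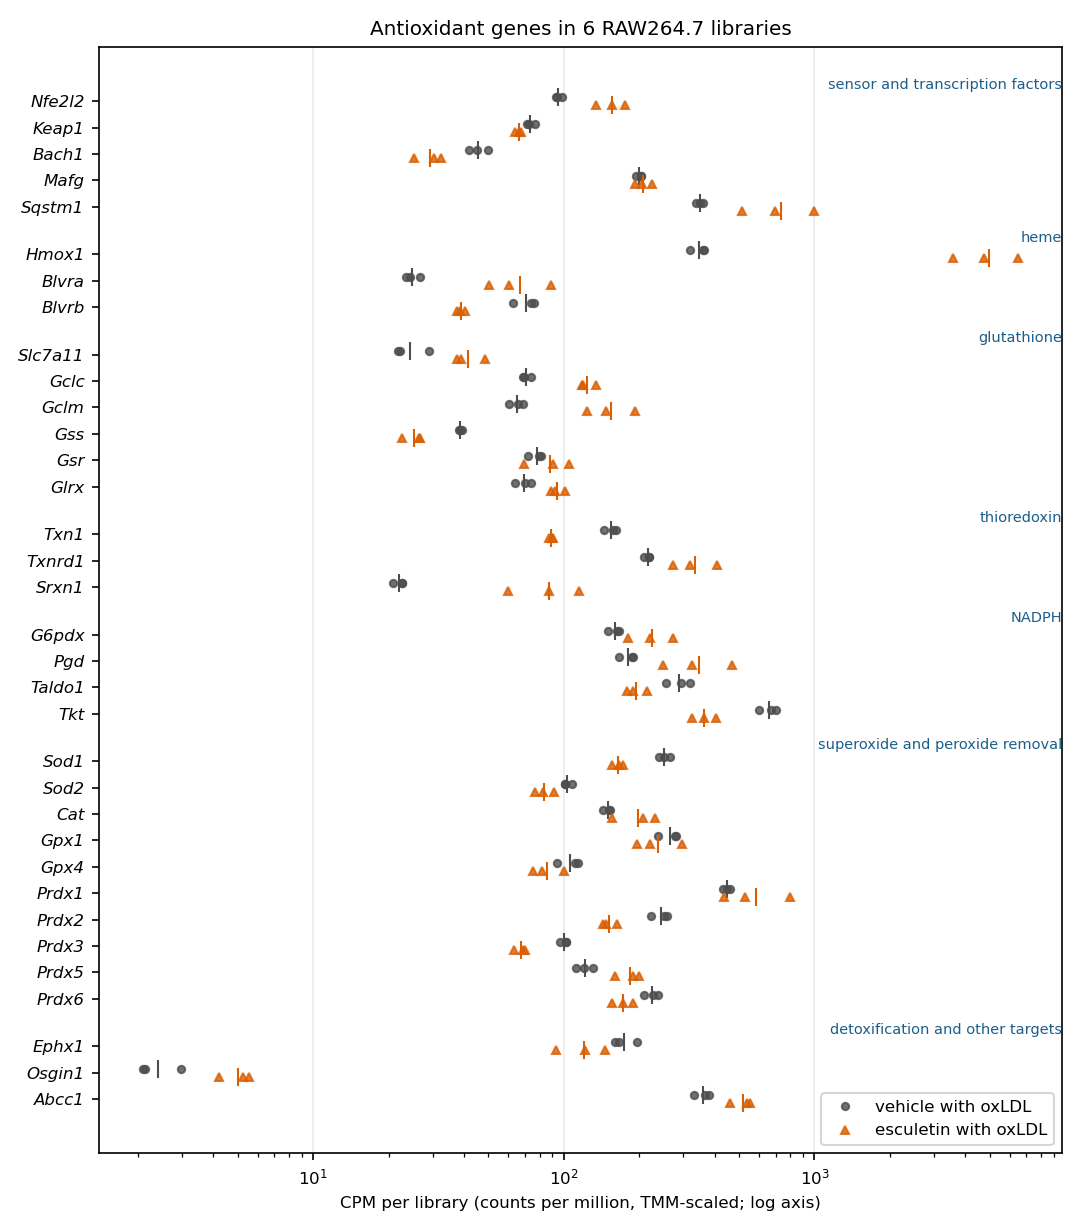
CPM of the 34 tested members in each RAW264.7 library on a log axis, with grey circles for vehicle, orange triangles for esculetin and vertical ticks for group means over 3 libraries. Hmox1 moved from between 318 and 362 CPM to between 3582 and 6500 CPM, and the paired genes Blvra and Blvrb, Txnrd1 and Txn1, and Pgd and Tkt moved in opposite directions.

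The treated cell libraries were not interchangeable for the induced genes. Esculetin replicate 3 had the highest value of its group in 14 of the 16 members called higher and esculetin replicate 1 the lowest in 14, with medians of 1.19 and 0.811 times the group mean. For the 13 members called lower, replicate 3 was highest in 7 and replicate 1 lowest in 9, with medians of 1.05 and 0.943. The total counts ran in the same order, at 18801094 in replicate 3, 14954496 in replicate 2 and 13752842 in replicate 1, and their part in the spread was not tested.

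Among the sensor and its transcription factors, the NRF2 gene itself and Sqstm1 rose in the cells and Bach1 fell. Nfe2l2 (ENSMUSG00000015839, chr2:75504739-75534985 in GRCm39, minus strand) measured 98.0, 92.7 and 93.8 CPM in the control cells and 135, 155 and 175 CPM in the treated cells. The groups did not overlap, and the log2 fold change was 0.71 ± 0.10 (SE) with an adjusted p of 0.000112. Sqstm1 (ENSMUSG00000015837, chr11:50089572-50107684, minus strand) encodes p62, an autophagy receptor that binds KEAP1 and removes it from NRF2. It stood at 337, 360 and 348 CPM in control cells and at 515, 693 and 993 CPM with esculetin. Its rise of 1.08 ± 0.18 on the log2 scale (adjusted p = 0.000424) came without overlap, and the treated libraries spread far wider than the controls. Reads of genes on the opposite strand could enter this value, since the strand setting of the counting was not stated. There 2 such genes overlap the Sqstm1 transcript, and the largest single overlap covers 24.4% of it.

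Keap1 (ENSMUSG00000003308, chr9:21141026-21150679, minus strand) measured 71.4, 72.9 and 76.4 CPM against 66.5, 63.9 and 67.6 CPM. Its treated libraries lay below the controls, yet the log2 fold change of -0.16 ± 0.08 did not pass the test (adjusted p = 0.119). Bach1, the competing repressor, fell from a mean of 45.5 to 29.3 CPM, a log2 fold change of -0.64 ± 0.12 with an adjusted p of 0.000868. Mafg, one of the small MAF partners, had overlapping groups (0.05 ± 0.08, adjusted p = 0.605).

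Heme breakdown held the largest change of the 36 genes. Hmox1 (ENSMUSG00000005413, chr8:75820241-75827217, plus strand) encodes heme oxygenase 1, which opens heme to biliverdin, iron and carbon monoxide. Its level was 318, 360 and 362 CPM in the control cells and 3582, 4759 and 6500 CPM in the treated cells. The lowest treated library lay far above the highest control, and the log2 fold change was 3.84 ± 0.20, or 14.3-fold, with an adjusted p of 1.15e-07. Per kb of transcript Hmox1 ranked 213 among 13239 tested genes in the control cells and 10 in the treated cells, where its 3137 CPM per kb exceeded the 225 of the next member, Sqstm1.

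The biliverdin reductases, which turn biliverdin into bilirubin, moved apart. Blvra (ENSMUSG00000001999, chr2:126912556-126939017, plus strand) measured 26.6, 24.4 and 23.4 CPM in control and 50.5, 60.3 and 89.1 CPM in treated cells. The groups were separate, with a log2 fold change of 1.43 ± 0.18 (adjusted p = 4.53e-05). Blvrb, whose product also serves as a flavin reductase, went from 62.8, 76.1 and 73.6 CPM to 37.6, 40.3 and 38.4 CPM. That was a fall of 0.87 ± 0.10 on the log2 scale (adjusted p = 2.20e-05), with no overlap either.

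In the glutathione pathway 4 of 6 members rose and 1 fell (66.7% and 16.7%, beside 28.7% and 29.0% of all genes). The first and rate-limiting step is glutamate-cysteine ligase, made of the catalytic subunit Gclc and the modifier subunit Gclm. Gclc (ENSMUSG00000032350, chr9:77661797-77701770, plus strand) measured 69.3, 68.9 and 74.2 CPM in control and 118, 119 and 134 CPM in treated cells. Gclm (ENSMUSG00000028124, chr3:122039126-122065061, plus strand) went from 60.6, 68.6 and 65.6 CPM to 124, 147 and 193 CPM. Both subunits were higher in every treated library than in any control, with log2 fold changes of 0.80 ± 0.09 for Gclc (adjusted p = 1.59e-05) and 1.25 ± 0.14 for Gclm (adjusted p = 2.08e-05). Slc7a11 (ENSMUSG00000027737, chr3:49846975-50398070, minus strand) is the cystine carrier that supplies cysteine for glutathione. It measured 29.0, 22.2 and 21.7 CPM in control and 38.8, 37.6 and 48.5 CPM in treated cells, a rise of 0.78 ± 0.14 (adjusted p = 0.000742) without overlap. Glrx, which uses glutathione to reduce mixed disulphides, rose by 0.44 ± 0.09 on the log2 scale (adjusted p = 0.00163).

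The second enzyme of glutathione synthesis did not follow the first. Gss fell from a mean of 38.7 to 25.2 CPM, a log2 fold change of -0.62 ± 0.11 with an adjusted p of 0.000437. However, 3 genes of the opposite strand overlap its transcript, and the largest single overlap covers 47.9% of it. Gsr, which returns oxidised glutathione to the reduced form with NADPH, had overlapping groups and a log2 fold change of 0.18 ± 0.13 (adjusted p = 0.257). Without esculetin replicate 1, Gsr was called at 0.33 (adjusted p = 0.0130).

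The thioredoxin genes split in the same way. Srxn1 (ENSMUSG00000032802, chr2:151947436-151957687, plus strand) encodes sulfiredoxin, which repairs over-oxidised peroxiredoxins. Its level was 20.8, 22.5 and 22.7 CPM in control and 59.6, 87.3 and 115 CPM in treated cells. The treated libraries shared no values with the controls, and the log2 fold change was 1.99 ± 0.19, the second largest of the members (adjusted p = 7.13e-06). Txnrd1 (ENSMUSG00000020250, chr10:82669785-82733546, plus strand), the cytosolic thioredoxin reductase, measured 219, 210 and 220 CPM against 272, 317 and 407 CPM. It rose by 0.62 ± 0.13 on the log2 scale (adjusted p = 0.00143), again without overlap. Txn1, the thioredoxin that this enzyme reduces, measured 157, 145 and 161 CPM in control and 90.4, 89.4 and 87.6 CPM in treated cells. That fall of 0.79 ± 0.08 (adjusted p = 1.08e-05) left the groups far apart, and the SD of the treated libraries was 1.41 CPM.

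Of the 4 members of the pentose phosphate pathway 2 rose and 2 fell (50% each, beside 28.7% and 29.0% of all genes). G6pdx and Pgd, the dehydrogenases that make NADPH in the oxidative branch, rose by 0.49 ± 0.13 (adjusted p = 0.00694) and 0.94 ± 0.18 (adjusted p = 0.000932). Pgd went from 166, 187 and 189 CPM to 248, 325 and 467 CPM, with separate groups and a wide spread among the treated libraries. Taldo1 and Tkt, the transaldolase and transketolase that rearrange sugars in the non-oxidative branch, fell by 0.57 ± 0.10 (adjusted p = 0.000674) and 0.86 ± 0.10 (adjusted p = 3.43e-05). Tkt measured 600, 705 and 674 CPM in control and 324, 363 and 406 CPM in treated cells, well apart.

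These divergent moves can be read within each library as a ratio of CPM per kb, which the scaling between libraries cannot alter. The pairs were set together after their changes had been seen, so the ratios carry no test. Blvra over Blvrb was 0.411, 0.310 and 0.308 in control and 1.30, 1.45 and 2.25 in treated cells. Txnrd1 over Txn1 went from 0.332, 0.344 and 0.325 to 0.715, 0.843 and 1.10, and Pgd over Tkt from 0.259, 0.249 and 0.264 to 0.721, 0.842 and 1.08. Each ratio was higher in all 3 treated cell libraries than in any control, as were Gclc over Gss, Gclm over Gss and G6pdx over Taldo1. In the liver the groups overlapped for all 6 ratios.

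**Figure D2:**
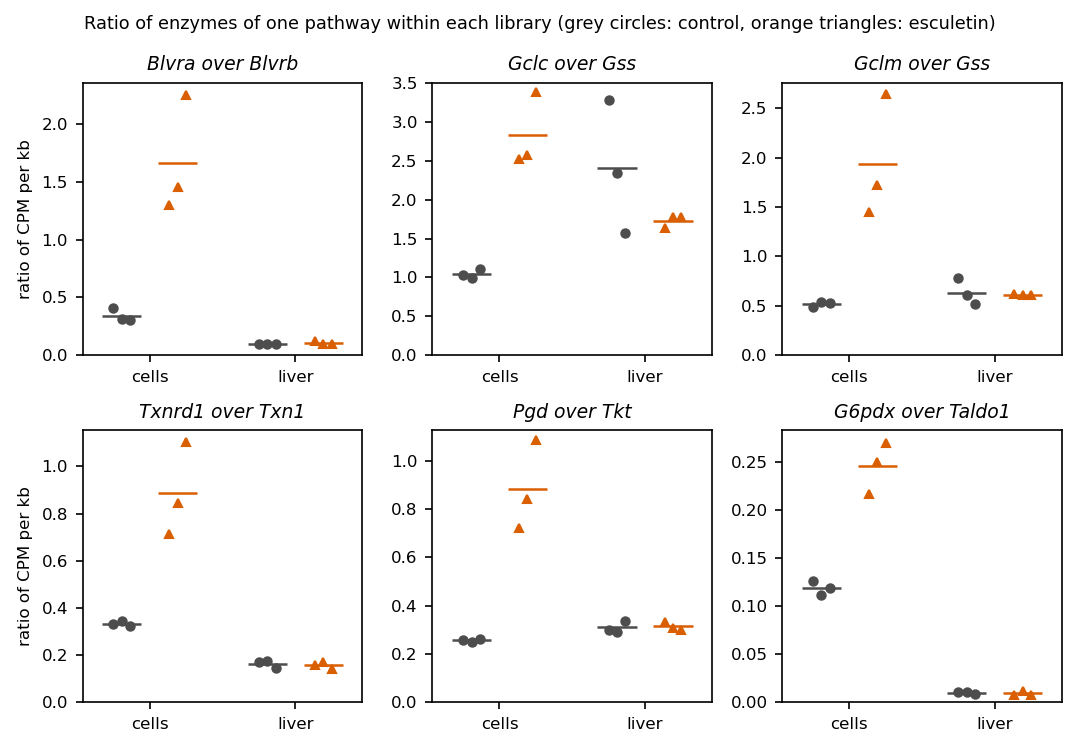
Ratio of CPM per kb for 6 pairs of genes of one pathway, 1 point per library on axes that start at 0, with grey circles for control, orange triangles for esculetin and lines for the means of 3 libraries. In the cells Pgd over Tkt rose from a mean of 0.257 to 0.882, while in the liver it was 0.311 and 0.314.

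Superoxide and peroxide removal, the arm with the most members tested, also had the most calls lower in the cells. Of its 10 tested members 6 were called lower and 2 higher (60% and 20%, beside 29.0% and 28.7% of all genes). The median log2 fold change was -0.30, and without esculetin replicate 2 the counts were 4 lower and 1 higher. The superoxide dismutases Sod1, in the cytosol, and Sod2, in mitochondria, fell by 0.62 ± 0.08 (adjusted p = 7.31e-05) and 0.30 ± 0.09 (adjusted p = 0.0128), and Scaf4 on the opposite strand covers 79.3% of the Sod1 transcript. Among the peroxiredoxins, which reduce peroxides with electrons from thioredoxin or glutathione, Prdx2, Prdx3 and Prdx6 fell by 0.68 ± 0.09, 0.57 ± 0.08 and 0.38 ± 0.09. Genes on the opposite strand overlap the Prdx2 transcript as well, the largest single overlap covering 31.0% of it. Prdx5 rose by 0.59 ± 0.10 (adjusted p = 0.000409), with 46.3% of its transcript covered by Trmt112. Catalase (Cat), which splits hydrogen peroxide in peroxisomes, rose by 0.41 ± 0.13 (adjusted p = 0.0155).

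Several members of this arm lay close to the threshold. Prdx1 measured 431, 447 and 461 CPM in control and 434, 529 and 797 CPM in treated cells. The lowest treated value lay among the control values, and the log2 fold change of 0.40 ± 0.17 had an adjusted p of 0.0708. Without esculetin replicate 1 it was 0.57 (adjusted p = 0.00239). Prdx1 was also called with DESeq2 (adjusted p = 0.0232), and by edgeR with a replicate block (0.0255) or without a filter on low counts (0.00233). Gpx4, which reduces lipid hydroperoxides in membranes, was called lower at -0.30 ± 0.12 with overlapping groups (adjusted p = 0.0452), and lost the call without control replicate 2 or 3 or esculetin replicate 1 or 2 (adjusted p = 0.125 to 0.153). Gpx1, which had the highest mean of the members in the control cells at 248 CPM per kb, was not called (-0.16 ± 0.14, adjusted p = 0.323), but without esculetin replicate 3 it was lower at -0.36 (adjusted p = 0.00753). Sod2 lost its call without control replicate 3 or esculetin replicate 2, and Cat without control replicate 1 or esculetin replicate 2 (adjusted p = 0.0546 to 0.0680). Gpx3, the secreted glutathione peroxidase, held only 2, 0 and 4 counts in control and 1, 1 and 4 in treated cells and was not tested.

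Among the detoxification genes and other targets, Osgin1 and Abcc1 rose and Ephx1 fell. Osgin1 (ENSMUSG00000074063, chr8:120152470-120173000, plus strand), a stress-responsive growth regulator, was low throughout, at 2.13, 2.96 and 2.09 CPM in control and 5.56, 4.23 and 5.24 CPM in treated cells. The groups were separate, with a log2 fold change of 1.07 ± 0.24 (adjusted p = 0.00243). Abcc1, which exports glutathione conjugates, rose by 0.53 ± 0.10 (adjusted p = 0.000655). Ephx1, the microsomal epoxide hydrolase, fell by 0.53 ± 0.14 (adjusted p = 0.00832). Nqo1 (ENSMUSG00000003849, chr8:108113835-108129934, minus strand), the quinone reductase often read as a measure of NRF2 activity, held 1, 3 and 0 counts in control and 0, 2 and 0 in treated cells. No change of Nqo1 was detectable at this depth, and no fold change is given.

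In the liver none of the 35 tested members was called by edgeR, where 11 of 12813 genes (0.0859%) were. In whole tissue, fewer cells of a type and less RNA per cell cannot be told apart. At an unadjusted p under 0.05 there were 5 lower members (14.3%) and 1 higher (2.86%), beside 4.98% and 3.39% of all genes. DESeq2 called 2 members, Nfe2l2 (adjusted p = 0.00795) and Ephx1 (adjusted p = 0.0415), which is 5.71% beside 0.765% of all genes, and limma-voom called none. The groups did not overlap for 4 lower and 4 higher members (11.4% each), beside 7.95% and 6.52% of all genes. The median log2 fold change was -0.02 over the members and -0.02 over all genes.

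The gene of NRF2 had the smallest p-value of the members in the liver and a direction opposite to that in the cells. Nfe2l2 measured 76.3, 59.3 and 45.0 CPM in control livers and 34.9, 34.4 and 36.6 CPM in treated livers. The treated values lay close together below a widely spread control group. The log2 fold change was -0.77 ± 0.17 (edgeR adjusted p = 0.165), and without control replicate 1 it was -0.56. Gclc measured 401, 360 and 257 CPM against 211, 244 and 247 CPM, with the same order of the control libraries. Its log2 fold change was -0.54 ± 0.16 (adjusted p = 0.347), and -0.40 without control replicate 1. Both genes were called without control replicate 3, with adjusted p-values of 0.0341 and 0.0459. The 8 markers of Kupffer cells and macrophages summed to between 361 and 417 CPM in control and between 323 and 368 CPM in treated livers, none was called and 3 had an unadjusted p under 0.05. The part of such cells in these values was not tested.

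The other liver values at that level came from detoxification genes and 1 peroxidase. Ephx1 (ENSMUSG00000038776, chr1:180803775-180848537, minus strand) measured 285, 386 and 326 CPM in control and 249, 198 and 233 CPM in treated livers. The groups did not overlap (-0.55 ± 0.14, edgeR adjusted p = 0.271, DESeq2 adjusted p = 0.0415). Abcc1 (ENSMUSG00000023088, chr16:14179311-14293601, plus strand) was near the detection limit at 1.47, 2.81 and 2.74 CPM against 1.42, 1.23 and 0.971 CPM (-0.95 ± 0.35, adjusted p = 0.491). Osgin1 measured 191, 522 and 201 CPM against 161, 175 and 214 CPM. Its log2 fold change of -0.73 ± 0.31 (adjusted p = 0.556) rested on control replicate 2 and was -0.10 without it. Gpx1 (ENSMUSG00000063856, chr9:108216102-108217546, plus strand) measured 2033, 3111 and 3604 CPM in control and 4188, 3726 and 4336 CPM in treated livers, at 0.49 ± 0.19 (adjusted p = 0.523) and at 0.29 without control replicate 1.

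**Figure D3:**
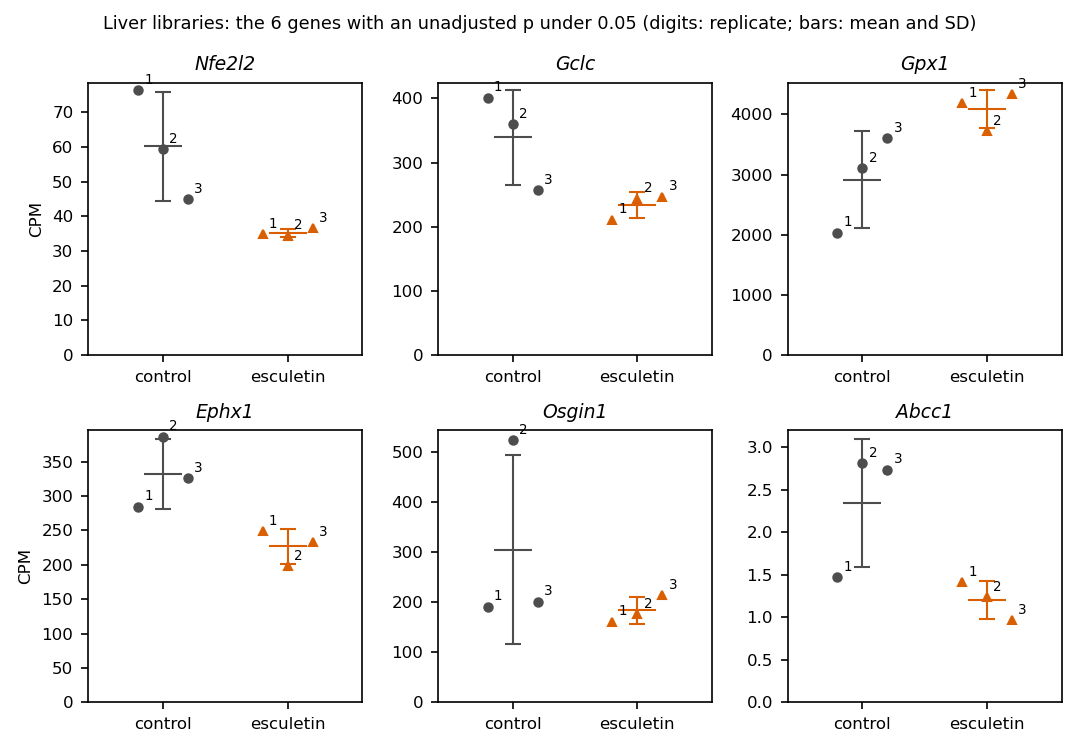
CPM of the 6 members with an unadjusted p under 0.05 in the liver, 1 point per library marked with its replicate number, with the mean and SD of 3 libraries on axes that start at 0. None passed the adjusted threshold with edgeR, 2 (Nfe2l2 and Ephx1) passed it with DESeq2, and Osgin1 control replicate 2, at 522 CPM, lies above all other libraries.

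The remaining core genes showed no call in the liver. Hmox1 measured 20.2, 25.3 and 30.4 CPM in control livers and lay between 19.4 and 20.9 CPM in all 3 treated livers (-0.33 ± 0.16, adjusted p = 0.622). Srxn1 measured 46.7, 43.5 and 50.1 CPM against 38.3, 39.2 and 44.9 CPM (-0.20 ± 0.12, adjusted p = 0.686). The groups of both genes overlapped, and the point estimates were below 0. Gclm stood at 175, 172 and 154 CPM against 147, 155 and 156 CPM (-0.13 ± 0.11), and Txnrd1 at 108, 124 and 113 CPM against 109, 113 and 107 CPM (-0.07 ± 0.11). Keap1 stood at 37.5, 43.5 and 41.1 CPM against 34.0, 37.6 and 39.9 CPM (-0.13 ± 0.12), and Nqo1 at 7.80, 7.65 and 6.0 CPM against 7.14, 7.47 and 6.60 CPM (-0.02 ± 0.18). The groups of these 4 genes also overlapped. Slc7a11 held 0, 4 and 0 counts in control and 2, 7 and 0 in treated livers and was not tested.

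The peroxide-removing arm differed in level between the settings. In the liver Gpx1 and Cat were the most abundant members per kb, at 2720 and 1299 CPM per kb in the controls and ranks 25 and 52 among 12791 genes. The summed CPM of the arm was 8721, 10957 and 11605 in control and 12499, 12099 and 12986 in treated livers. The treated sums lay above the control sums. Cat and Gpx1 held the largest parts, with control means of 3394 and 2916 CPM and treated means of 3864 and 4084 CPM. Of the 11 members 10 had a log2 fold change above 0, beside 5959 of all 12813 genes tested in the liver. The members' median was 0.19 and none was called. With library size as the only scaling 9 were above 0, and without control replicate 1, the lowest sum, 8 were above 0 with a median of 0.07. In the cells the sums overlapped, at 1888, 2074 and 2074 CPM in control and 1616, 1866 and 2308 CPM in treated libraries.

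Whether the effect differed between the settings was tested in a model of all 12 libraries. The cells and mice differed in dose, route, vehicle and time as well as in cell type, and these cannot be told apart. Of 36 members 21 were called (58.3%), 11 with a higher and 10 with a lower effect in the cells, beside 27.1%, 13.4% and 13.7% of the 15709 genes tested. All 21 were among the 33 members tested in both tables. Hmox1 differed by 4.12 ± 0.27 on the log2 scale (adjusted p = 1.42e-07) and Srxn1 by 2.14 ± 0.24 (adjusted p = 1.42e-05). Nfe2l2 differed by 1.44 ± 0.21 (adjusted p = 0.000136), with a rise in the cells and a negative, uncalled estimate in the liver. Gclc and Gclm differed by 1.30 ± 0.20 and 1.34 ± 0.19. For Ephx1, with negative estimates in both settings, the difference of -0.02 ± 0.23 did not pass the test.

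Side by side, 15 members tested in both tables were called higher in the cells, of which 5 had a liver estimate above 0 and 10 below. Of the 13 called lower in the cells, 6 had a liver estimate above 0 and 7 below.

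**Figure D4:**
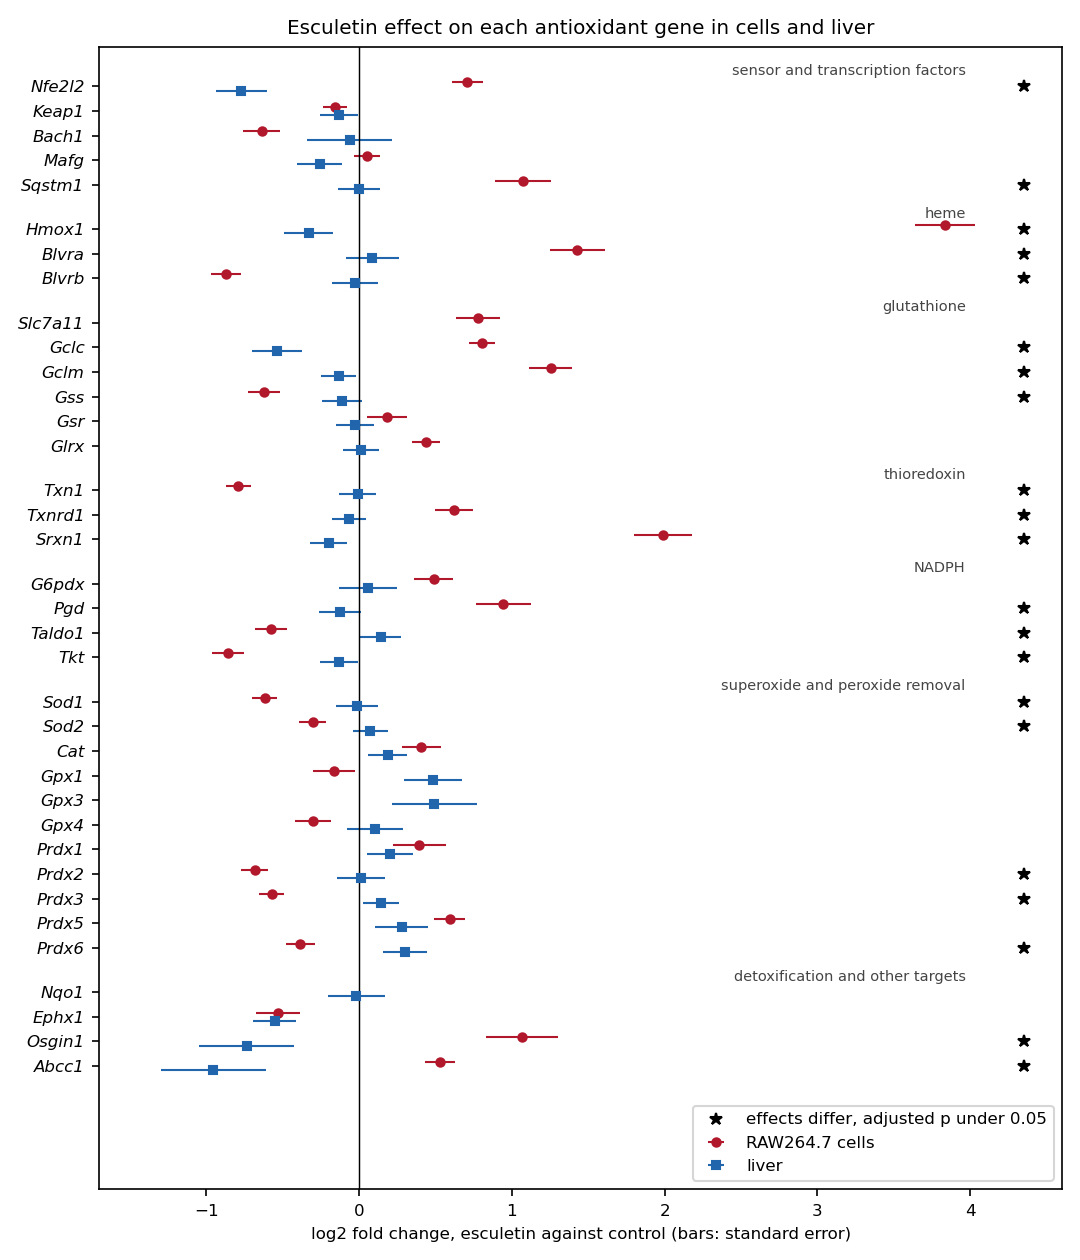
Log2 fold change of each member, esculetin against control, with its standard error, in the cells (red circles) and in the liver (blue squares), grouped by pathway, with stars where the 2 effects differed at an adjusted p under 0.05. Hmox1 lies at 3.84 in the cells and -0.33 in the liver, and no liver estimate is called by edgeR.

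Neighbouring genes of the same pathways, 75 in all, were followed as context. In the cells 62 were tested, of which 14 were called higher and 21 lower (22.6% and 33.9%), with a median log2 fold change of -0.13. Their share of calls, 56.5%, was close to the 57.7% of all genes. In the liver none of 73 was called by edgeR, and 6 (8.22%) had an unadjusted p under 0.05, beside 8.37% of all genes.

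Among other heme and iron genes 2 of 7 tested were called in the cells, all higher. These 28.6% stand beside 28.7% of all genes called higher and 57.7% called in either direction. Slc40a1, the iron exporter ferroportin, went from 20.9 ± 1.43 (SD, n = 3) to 167 ± 22.2 CPM (log2 fold change 3.00 ± 0.12, edgeR adjusted p = 3.36e-08), and Fth1, the ferritin heavy chain, from 3967 to 7886 CPM (0.99 ± 0.12). They were the only called genes among the 7 of that list, all of them tested. Among other regulators 6 of 7 tested genes were called, 2 higher and 4 lower (28.6% and 57.1%, beside 28.7% and 29.0% of all genes). Nfe2l1, a relative of NRF2, Mafk, a small MAF, and Btrc, an adaptor of a ubiquitin ligase, fell by 0.77, 0.53 and 0.51 on the log2 scale.

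Among other glutathione genes 1 was called higher and 3 lower of 8 tested (12.5% and 37.5%, beside 28.7% and 29.0% of all genes). The glutathione transferases Gstm1 and Gstp1 fell by 1.95 ± 0.18 and 0.87 ± 0.17, and Slc3a2, the partner chain of the Slc7a11 carrier, fell by 0.997 ± 0.11, whereas Slc7a11 rose. In the thioredoxin list 3 of 6 were called, all lower (50%, beside 29.0% of all genes called lower). They were Txnip, the inhibitor of thioredoxin, at -1.15 ± 0.16, the mitochondrial Txn2 at -0.39 and Txndc12 at -0.41. Of the NADPH genes 2 rose and 3 fell among 7 tested (28.6% and 42.9%, beside 28.7% and 29.0% of all genes). Pgls, the lactonase between G6pdx and Pgd, fell by 0.78 ± 0.09, unlike the enzymes on either side of it, while the isomerase Rpia fell by 0.53 and the epimerase Rpe rose by 0.34.

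Of the further superoxide and peroxide genes none of 3 tested was called by edgeR, and 1 had an unadjusted p under 0.05. The other detoxification genes gave 3 calls higher and 3 lower of 9 tested (33.3% each, beside 28.7% and 29.0% of all genes). Abcc3, a relative of Abcc1 that exports conjugates, held 4, 5 and 3 counts in control and 67, 58 and 51 counts in treated cells, with a log2 fold change of 4.19 ± 0.40 that rests on few control reads. Mgst3, a membrane-bound glutathione transferase, fell by 1.46 ± 0.13, and Ugdh, which makes the sugar for glucuronidation, rose by 0.47 ± 0.08.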

How the data were processed

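Raw counts per gene, as whole numbers, were deposited by the authors in a liver table and a cell table. The study's methods state paired-end sequencing, alignment with HISAT (per the labels, HISAT2 2.2.1) to GRCm39 and counting with featureCounts. The labels list mm10 as well, with no role given. RNA selection, strandedness and the treatment of reads with several positions were not given in the sources used here. Symbols, positions and canonical transcript lengths came from GENCODE annotation of GRCm39, matched by identifier for 54749 of 55357 rows. For 11 members another gene of the tables overlaps the locus. The named copies Txn-ps1, Prdx6b and G6pd2 held at most 14 counts in any library. No column was left unused, and no pair of libraries agreed within counting noise.

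Each table was fitted in R 4.3.3 with edgeR 4.0.16 (filterByExpr, TMM, quasi-likelihood F test, two-sided, Benjamini-Hochberg adjustment over all tested genes). A 4-group fit of all 12 libraries tested the difference between settings. DESeq2 1.42.0, limma-voom (limma 3.58.1), other scalings and filters, the study's criterion (unadjusted p under 0.05 and a fold change over 1.5), a replicate block and the omission of each library were alternatives. The fits were tested on simulated counts with known changes. An exact two-sided permutation test of 3 against 3 cannot go below 0.1, so single-gene p-values rest on error shared across genes. The members and lists were chosen with earlier results of these data known. Values per library are given for 9 core genes in both tables, for members called in the cells with an absolute log2 fold change of at least 1, and for members with an unadjusted p under 0.05 in the liver. Up to 3 called genes with the smallest p are named from each other list, except 1 list that is not reported here. Per-library values of other members were added after their changes were seen. Motifs were searched in RefSeq promoters of GRCm38.p6, which were not mixed with GRCm39 positions.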

Additional observations from a re-analysis of the deposited data

Results flagged for a closer look

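For 21 members the effect of esculetin differed between the cells and the liver by the test of the difference itself (edgeR, adjusted p under 0.05). The values are differences of log2 fold changes, cells minus liver.

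The effect was higher in the cells for 11. In heme breakdown the difference was 4.12 for Hmox1 and 1.30 for Blvra. In the thioredoxin and glutathione arms it was 2.14 for Srxn1, 0.64 for Txnrd1, 1.34 for Gclm and 1.30 for Gclc. It was 1.44 for Nfe2l2, 1.03 for Sqstm1, 1.02 for Pgd, 1.44 for Abcc1 and 1.75 for Osgin1, whose liver values include 1 control library far above the rest.

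For the other 10 the effect was lower in the cells. The enzymes of heme, glutathione and sugar metabolism gave -0.89 for Blvrb, -0.55 for Gss, -0.76 for Taldo1 and -0.77 for Tkt. Among thioredoxin and peroxiredoxin genes the difference was -0.82 for Txn1, -0.74 for Prdx2, -0.76 for Prdx3 and -0.73 for Prdx6. The superoxide dismutases gave -0.65 for Sod1 and -0.42 for Sod2. The call of Sod2 was lost in 13 of 20 other settings, among them RLE scaling (adjusted p = 0.0634), upper quartile scaling (0.0543) and no filter on low counts (0.118), and that of Gss in 5.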

How the results depend on the processing

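The count of 29 members called in the cells ran from 26 to 30 when 1 library was left out and was 19 both with an added fold-change limit of 1.5 and under the study's criterion. Of the 34 members tested there, 26 kept direction and side of the threshold in all 14 settings, and the exceptions were Keap1, Mafg, Gsr, Sod2, Cat, Gpx1, Gpx4 and Prdx1. Mafg, near 0, turned to -0.011 with library size alone and to -0.0098 without esculetin replicate 1. In the liver the count of 0 became 4 without a filter on low counts (11.1%, beside 1.52% of all genes), 2 with DESeq2 (5.71%, beside 0.765%), 2 under the study's criterion (5.71%, beside 3.89%) and between 0 and 2 when 1 library was left out. Nqo1 in the liver ran from -0.15 to 0.051 with 1 library left out, and was above 0 in 3 of these fits, at 0.051 and 0.036 with control replicate 1 or 2 omitted and at 0.016 with esculetin replicate 3 omitted. The 21 members that differed between settings ran from 19 to 22 with 1 library left out, where Gss and Sod2 lost calls. Osgin1 lost its call with limma-voom (1.62, adjusted p = 0.155). With a replicate block 30 members were called in the cells, 1 in the liver (Nfe2l2, adjusted p = 0.0140) and 23 between settings. Deviations of same-numbered libraries correlated at 0.165, -0.030 and 0.080 in the cells and at 0.140, -0.005 and 0.103 in the liver, so that not every library went best with its own number, and the numbers were not treated as pairs. Where counts were near 0 (Nqo1 and Gpx3 in the cells, Slc7a11 in the liver), depth limits any statement. The causes of these shifts were not tested.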

Other observations

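A related list was followed in the cells as well. Of 9 genes of selenoprotein synthesis and small selenoproteins, 8 were tested. Of these, 3 were called higher and 3 lower (37.5% each, beside 28.7% and 29.0% of all genes). Secisbp2, which binds the element that recodes UGA as selenocysteine, measured 12.7 ± 0.278 CPM in control and 34.7 ± 1.09 CPM in treated cells (SD, n = 3) and rose by 1.44 ± 0.11 (SE) on the log2 scale. Sephs2, which makes the selenium donor, fell by 0.67 ± 0.09, and Selenos, a selenoprotein of the endoplasmic reticulum, rose by 1.08 ± 0.17. The list held no called gene in the liver by edgeR, where none of the 9 tested genes had an unadjusted p under 0.05.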
